A study of Mus musculus with 4 samples.

Results

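The nuclear genes for the subunits of the mitochondrial respiratory chain and ATP synthase were examined in cultured mouse Th17 cells, CD4 helper T cells that make interleukin-17. Members were all protein-coding rows of the authors' deposited table whose GENCODE M21 symbol begins with Nduf, Uqcr, Atp5, or Cox followed by a digit from 4 to 8, or is Cyc1, Sdha, Sdhb, Sdhc or Sdhd. This gave 95 of 55450 rows, with 94 different symbols: 46 of complex I, 4 of complex II, 9 of complex III, 18 of complex IV and 18 of complex V. RNA had been sequenced from 4 libraries. There were 2 from cells transduced with the PSIN retroviral vector carrying a guide RNA against Adarb1 (sgAdarb1) and 2 from cells given the empty PSIN vector as control. All cells carried a Cas9 transgene, for which no promoter is given in the sources used here, and came from mice aged 8 to 12 weeks. Naive CD4 T cells had been stimulated through CD3 (0.25 µg/mL antibody) and CD28 (1 µg/mL) for 24 h, transduced, and then kept for 72 h with TGF-β (0.3 ng/mL) and IL-6 (20 ng/mL), which drive the Th17 fate. Adarb1 encodes the RNA-editing enzyme ADAR2. The series' design text calls the 2 donor mice wildtype, where the sample labels give a Cas9 transgene, and has each donor supply both arms.

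Mitochondria make most of their ATP by passing electrons from NADH (complex I) and succinate (complex II) through complex III and cytochrome c to complex IV, which reduces oxygen. Complexes I, III and IV pump protons, and complex V, the ATP synthase, uses the return flow to make ATP. All but complex II combine subunits encoded in the nucleus with subunits encoded by mitochondrial DNA. Activated T cells raise both glycolysis and respiration, and the balance between them differs among helper T cell classes.

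The deposited table gives, for each gene, a mean normalized count over all libraries (counts divided by DESeq2 size factors) and a log2 fold change with a standard error (SE). Values of single libraries are given under column names that match no sample label, so no value per culture is reported and no depth per library was used. Fold changes are written as sgAdarb1 over empty vector, following the design text. The table names no numerator, and with the opposite order all signs below would turn. A treatment tag on 2 of the 4 samples goes against the sample title, and the authors' grouping could not be checked. Adarb1 itself lay at 0.11 ± 0.12 (log2, SE) in the authors' deposited table, so its RNA level does not show which libraries had received the guide. The T cell genes Cd4, Cd3e and Cd3g had means of 15286, 5150 and 7555 normalized counts in the authors' deposited table, and the Th17 cytokine genes Il17a and Il17f means of 1756 and 3739. Il17a lay at 0.70 ± 0.15 (log2, SE; adjusted p 0.0709, DESeq2) and Il17f at 1.11 ± 0.53 in the authors' deposited table. Il23r and Ccr6, also Th17 genes, lay at 0.12 ± 0.22 and -0.19 ± 0.49, at means of 611 and 762, in the authors' deposited table. Transcripts of other cell types were present at lower means. The B cell genes Ms4a1 and Cd79a had means of 177 and 129, CD8 T cell genes of 218 and 287, and myeloid genes from 2.14 to 59.8, as normalized counts of the authors' deposited table. The mast cell genes Cpa3 and Cma1 lay at -5.66 ± 1.26 and -4.70 ± 1.98 (log2, SE), at means of 28.7 and 8.20, in the authors' deposited table. The other mast cell genes, Kit and Mcpt4, lay at 0.03 ± 0.54 and -1.86 ± 4.93, at means of 66.8 and 0.521, in the authors' deposited table. The CD8 T cell genes Cd8a and Cd8b1 lay at 0.74 ± 0.71 and 0.20 ± 0.30 in the authors' deposited table. The myeloid genes Lyz2 and Csf1r lay at 0.94 ± 1.16 and 1.35 ± 1.32 in the authors' deposited table. Itgam and Cd68, also myeloid, lay at 1.67 ± 3.29 and 0.43 ± 0.56 in the authors' deposited table. All were positive, but the smallest unadjusted p among them was 0.297 (Cd8a, DESeq2), so no shift was resolved. The B cell genes Ms4a1 and Cd79a were on the negative side, at -0.42 ± 3.97 and -0.13 ± 0.51, in the authors' deposited table. Of the erythroid genes, Alas2 had a mean of 20.3 and Hba-a1 of 1.20, and Hbb-bs was listed at 0, in the authors' deposited table. The part of such cells in the results below was not tested.

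No respiratory chain gene passed the test, but most lay slightly on the positive side. Of the 95 rows, 3 had a mean of 0, 4 had a mean between 0 and 10, and 88 had a mean of at least 10 and are counted below. By the adjusted p of the authors' deposited table, 0 of the 92 members with a fold change were below 0.05 (DESeq2), against 0% of all 29383 genes, and the smallest adjusted p of a member was 1.00. At an unadjusted p below 0.05 (DESeq2) there were also 0 members, where the background was 0.208% of all 29383 genes. Among the 11953 protein-coding genes with a mean of at least 10, 53 were below it. By sign, 77 of the 88 members were positive and 11 negative (87.5% positive), and the median log2 fold change was 0.07. Among all 11953 protein-coding genes with a mean of at least 10, 52.5% were positive and the median was 0.01. The members are read from the same 4 libraries, so their shared sign is not a set of independent observations and no test was made over them. In bulk RNA, more RNA per cell and more cells that make it cannot be told apart.

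**Figure D1:**
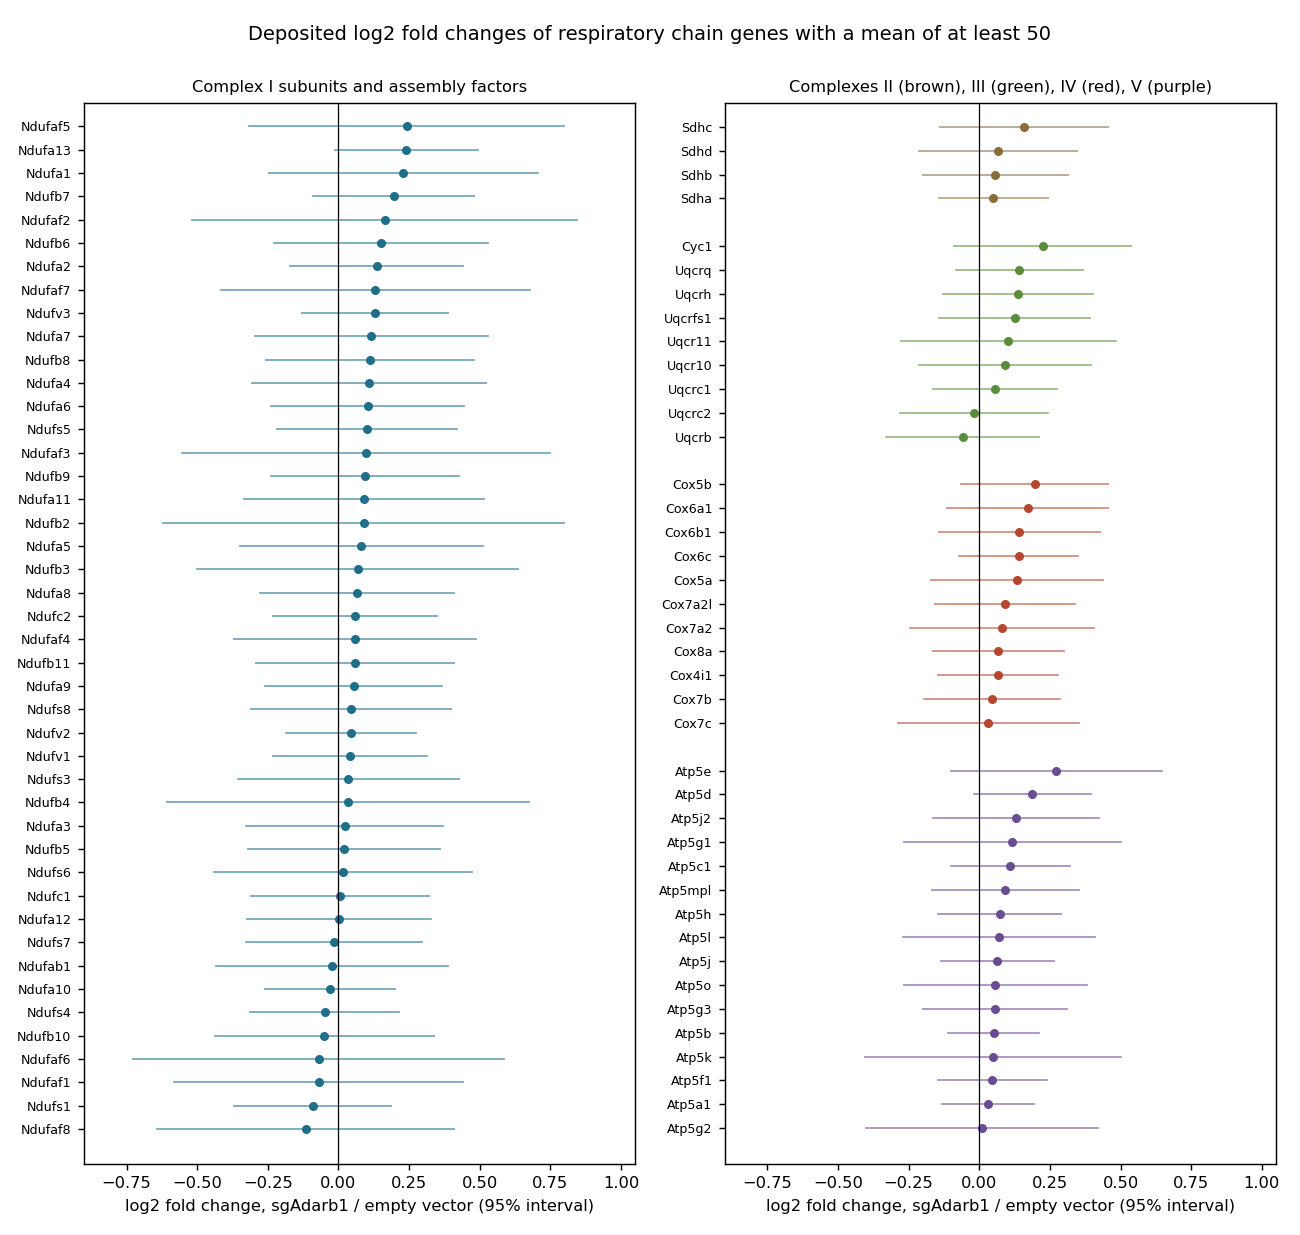
Each point is the deposited log2 fold change of 1 respiratory chain gene with a mean of at least 50 normalized counts (84 genes shown), and each bar its 95% interval. Complex I is on the left and complexes II to V are on the right; every interval spans 0, and 73 of the 84 points lie to the right of 0.

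The spread among the members was narrow compared with the error of each. Their log2 fold changes had an SD of 0.11, and the median deposited SE was 0.16. Wald statistics (fold change divided by SE) ran from -0.65 for Ndufs1 to 1.86 for Ndufa13. Their SD was 0.48, and it was 0.59 over all protein-coding genes with a mean of at least 10, so low values were common to the whole table. For 85 of the 88 members the 95% interval lay wholly within 1 log2 unit of 0, and for 66 it lay within 0.5. Among the 11953 protein-coding genes these counts were 9151 and 5738. With its SE unchanged and no other gene called, the median member would have passed only at a log2 fold change of 0.77 or more, with limits from 0.39 for the most precisely measured gene, Atp5b, to 5.13 for Cox6b2. Differences of the size seen were therefore not detectable gene by gene with these standard errors.

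Complex I, the NADH dehydrogenase, had 45 members with a mean of at least 10, of which 36 were positive and 9 negative, with a median log2 fold change of 0.06. The 7 core subunits, which between them carry the flavin, the iron-sulfur clusters and part of the quinone site, had 5 positive, 2 negative and a median of 0.04. Ndufv1, the flavin- and NADH-binding subunit, lay at 0.04 ± 0.14 and its partner Ndufv2 at 0.04 ± 0.12 (log2, SE) in the authors' deposited table. Ndufs1, the largest iron-sulfur subunit of the electron-input arm, lay at -0.09 ± 0.14 in the authors' deposited table (chromosome 1, 63143596 to 63176833, mm10). Ndufs7, which borders the quinone site, was at -0.02 ± 0.16 in the authors' deposited table. Ndufs3 and Ndufs8, which complete the arm, were at 0.04 ± 0.20 and 0.04 ± 0.18 in the authors' deposited table. The core subunits were thus spread on both sides of 0, each well inside its SE.

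The accessory subunits made up most of the counted members of complex I, and likewise most of its positive ones. In complex I as a whole 80.0% of the 45 members were positive. Of 14 Ndufa genes (Ndufab1 among them) 12 were positive, with a median of 0.09, and of 10 Ndufb genes 9 were positive, with a median of 0.08. Ndufa13 (chromosome 8, 69894180 to 69902558), also known as GRIM-19, had the smallest unadjusted p of all members. The authors' deposited table gave it 0.24 ± 0.13 (95% interval -0.01 to 0.49), a mean of 1875 normalized counts and an unadjusted p of 0.0634. Its exons share 375 bases with those of Tssk6 on the opposite strand, and the labels do not state whether the counting used strand. Ndufa1, on the X chromosome (37187588 to 37191163), lay at 0.23 ± 0.24 and Ndufb7 at 0.20 ± 0.15 in the authors' deposited table. On the negative side, Ndufa10 was at -0.03 ± 0.12 and Ndufb10 at -0.05 ± 0.20 in the authors' deposited table. Ndufab1, the mitochondrial acyl carrier protein, which is also a complex I subunit, was at -0.02 ± 0.21 in the authors' deposited table.

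The symbol rule also took in 8 Ndufaf genes, whose products assist the assembly of complex I and are not part of the finished enzyme. Of these, 5 were positive and 3 negative, with a median of 0.08. They held both extremes of complex I among genes with a mean of at least 50: Ndufaf5 at 0.24 ± 0.28 and Ndufaf8 at -0.12 ± 0.27 in the authors' deposited table. These genes had lower means, with a median of 249 normalized counts, and a median SE of 0.28. Without them 72 of 80 members were positive, with the same median of 0.07.

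Complex II, succinate dehydrogenase, is encoded wholly in the nucleus and also acts in the tricarboxylic acid cycle. All 4 of its genes were positive, with a median of 0.06. In the authors' deposited table Sdha, the flavoprotein, lay at 0.05 ± 0.10 (mean 4028 normalized counts) and Sdhb, the iron-sulfur subunit, at 0.06 ± 0.13. The membrane anchors Sdhc and Sdhd lay at 0.16 ± 0.15 and 0.07 ± 0.14 in the authors' deposited table. All of these intervals spanned 0, and per kb of exon Sdhd was the highest of the 4 (994 normalized counts).

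Complex III, the cytochrome bc1 complex, had 7 positive and 2 negative members, with a median of 0.10, which was 0.05 after removal of the GC and length trend described below. Cyc1, which encodes cytochrome c1, was the highest (chromosome 15, 76343523 to 76346260). The authors' deposited table gave it 0.22 ± 0.16, with a mean of 888 normalized counts and an unadjusted p of 0.161. Uqcrfs1, the Rieske iron-sulfur protein, was at 0.12 ± 0.14 in the authors' deposited table. The core proteins, which do not carry electrons, lay on different sides: Uqcrc1 at 0.06 ± 0.11 and Uqcrc2 at -0.02 ± 0.13 in the authors' deposited table. The small subunits Uqcrq and Uqcrh were at 0.14 ± 0.11 and 0.14 ± 0.14, and Uqcrb was lowest at -0.06 ± 0.14, in the authors' deposited table. Uqcr10, the complex III gene of highest level per kb of merged exons (1647 normalized counts), was at 0.09 ± 0.16 in the authors' deposited table.

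Complex IV, cytochrome c oxidase, had 13 members with a mean of at least 10, all of them positive, with a median of 0.13. Its catalytic subunits come from mitochondrial DNA, and the nuclear genes encode the subunits around them. For Cox5b, a zinc-binding subunit (chromosome 1, 36691449 to 36693681), the authors' deposited table gave 0.20 ± 0.13, a mean of 1494 normalized counts and an unadjusted p of 0.140. Cox6a1 was at 0.17 ± 0.14, Cox6b1 at 0.14 ± 0.14 and Cox6c at 0.14 ± 0.11 in the authors' deposited table. Cox5a was at 0.13 ± 0.15, and Cox4i1, the largest nuclear subunit, at 0.07 ± 0.11, in the authors' deposited table. Cox7c was the lowest, at 0.03 ± 0.16 in the authors' deposited table. The points above 0.5, Cox6b2 at 0.69 ± 1.07 and Cox7a1 at 0.51 ± 0.99, had means of only 15.4 and 18.9, by the authors' deposited table. With both left out by a minimum mean of 50, the remaining 11 complex IV genes were all positive and their median was 0.09, below the 0.10 of complex III. With no minimum mean, 14 of 16 complex IV genes were positive, with a median of 0.11. The negative ones, Cox4i2 at -1.86 ± 2.19 and Cox8b at -1.83 ± 4.93 in the authors' deposited table, had means below 10.

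Several complex IV subunits come in isoforms with tissue-specific expression, and in each family 1 or 2 genes supplied nearly all of the RNA. Levels are compared here as mean normalized count per kb of merged exon length. Cox4i1 made up 99.7% of the summed level per kb of its family, and Cox4i2, known from lung, the remaining 0.331%. Cox6a1 made up 99.8% against 0.207% for the muscle form Cox6a2, and Cox6b1 99.2% against 0.839% for the testis form Cox6b2. Cox8a, at 3379 per kb, was the highest of all complex IV genes, whereas the muscle form Cox8b reached 1.31 per kb. Cox8c and Cox7b2, known from testis, were listed at 0 in the authors' deposited table. In the Cox7a family the level was divided between Cox7a2l (56.0%), whose product joins complexes III and IV into supercomplexes, and Cox7a2 (42.3%). The muscle form Cox7a1 held 1.71%. In complex I, Ndufa4, now counted as a subunit of complex IV, made up 98.1% against 1.93% for its hypoxia-induced relative Ndufa4l2. The members of mean below 10 were thus Cox4i2, Cox6a2, Cox8b and Ndufa4l2, at 4.70, 2.35, 0.471 and 7.27 normalized counts in the authors' deposited table.

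Complex V, the ATP synthase, had 17 members with a mean of at least 10, and all were positive, with a median of 0.06. The 5 genes of the F1 head and stalk had a median of 0.11. Atp5a1 and Atp5b, which form the catalytic ring, were the most abundant members, with means of 13340 and 15422 normalized counts, and lay at 0.03 ± 0.08 and 0.05 ± 0.08 in the authors' deposited table. The stalk genes lay higher, with Atp5c1 (gamma) at 0.11 ± 0.11 in the authors' deposited table. For Atp5d (delta; chromosome 10, 80138632 to 80145818) the authors' deposited table gave 0.19 ± 0.11 and an unadjusted p of 0.0765. For Atp5e (epsilon; chromosome 2, 174461072 to 174464105) it was 0.27 ± 0.19, at a mean of 606 normalized counts, also in the authors' deposited table. It was the highest member among genes with a mean of at least 50. Whether the stalk genes differ from the ring genes was not tested, and their intervals overlap. Atp5s, a coupling factor of low level, (mean 49.1 normalized counts) was at 0.00 ± 0.61 in the authors' deposited table.

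Subunit c, which forms the rotating ring in the membrane, is encoded by 3 genes whose products share the same mature peptide behind different import leaders. Atp5g1, Atp5g2 and Atp5g3 lay at 0.12 ± 0.20, 0.01 ± 0.21 and 0.06 ± 0.13 in the authors' deposited table. Atp5g3 supplied 64.6% of their summed level per kb of merged exons, Atp5g2 25.2% and Atp5g1 10.2%. These shares depend on the length used, with merged exons of 4912 bases for Atp5g1 and 1675 for Atp5g2. By mean normalized count Atp5g1 (559) lay above Atp5g2 (471) in the authors' deposited table. With the median length of coding transcripts, Atp5g3, Atp5g2 and Atp5g1 were at 2186, 689 and 209 per kb. The coding sequences are shown because they bear on whether reads of the 3 genes can be told apart. The last 78 residues were identical in the 3 translated GENCODE M21 reading frames, while the 234 bases that encode them differed at 63 positions, 55 of these at the third base of a codon. Atp5g1 and Atp5g2 were identical at 84.6% of the 234 bases, with no identical run longer than 20 bases. Atp5g3 was identical to Atp5g1 at 78.6% and to Atp5g2 at 77.4%. The 234 bases run 5′ to 3′ along the coding strand, with capitals at the positions where the genes do not all agree:
Atp5g1: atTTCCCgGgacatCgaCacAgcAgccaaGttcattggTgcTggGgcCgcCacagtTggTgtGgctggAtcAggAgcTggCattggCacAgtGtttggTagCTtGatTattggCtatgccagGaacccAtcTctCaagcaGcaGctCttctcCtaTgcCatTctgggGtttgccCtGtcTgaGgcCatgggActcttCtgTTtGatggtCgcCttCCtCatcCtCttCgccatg
Atp5g2: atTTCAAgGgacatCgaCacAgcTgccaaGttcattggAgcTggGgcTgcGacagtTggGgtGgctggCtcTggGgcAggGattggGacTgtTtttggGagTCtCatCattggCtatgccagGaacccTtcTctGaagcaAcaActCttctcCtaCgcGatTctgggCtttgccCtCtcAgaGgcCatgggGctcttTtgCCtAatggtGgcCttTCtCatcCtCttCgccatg
Atp5g3: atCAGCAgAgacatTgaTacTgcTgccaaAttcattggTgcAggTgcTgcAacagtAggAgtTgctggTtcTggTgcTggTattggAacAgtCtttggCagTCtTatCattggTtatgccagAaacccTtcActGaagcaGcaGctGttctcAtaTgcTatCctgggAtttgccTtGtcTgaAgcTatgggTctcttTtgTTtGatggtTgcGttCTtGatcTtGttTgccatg

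**Figure D2:**
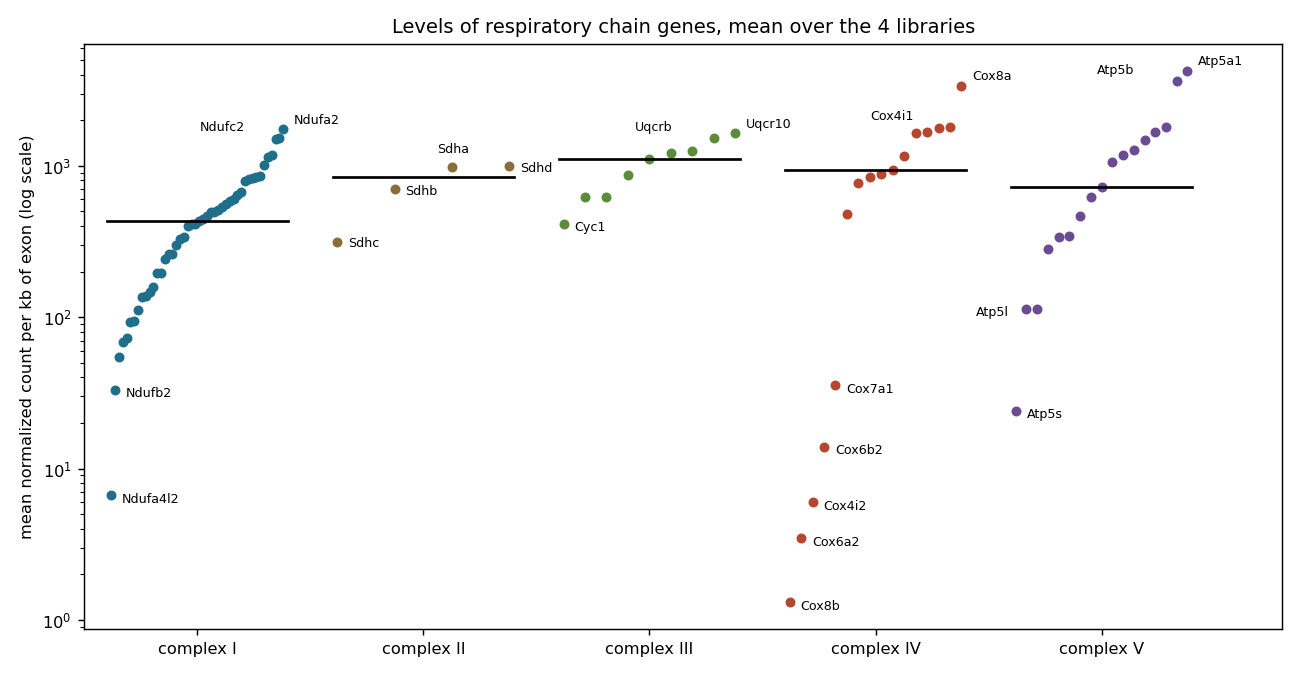
Each point is the mean normalized count over the 4 libraries per kb of merged exon length, on a log scale, for the 92 respiratory chain genes with a mean above 0, ordered within each complex. Black lines are medians of genes with a mean of at least 10. Atp5a1 is the highest point, and the complex IV isoforms Cox8b, Cox6a2 and Cox4i2 lie lowest, followed by Ndufa4l2 of complex I.

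Most members were abundant transcripts. Per kb of merged exons, 67 of the 88 lay in the top quartile of protein-coding genes that reached a mean of 10, and the median member was at percentile 89.6. Together the members took 0.726% of all normalized counts in the table. Complex I had the lowest median level, 431 normalized counts per kb, against 839, 1112, 942 and 720 for complexes II, III, IV and V. The 2 catalytic ring genes of complex V, Atp5a1 and Atp5b, stood above all other members, at 4255 and 3640 per kb. Within complex I, Ndufa2, Ndufc2 and Ndufa13 were highest (1750, 1522 and 1499 per kb), and Ndufb2 was lowest among subunits, at 33.3 per kb. Merged exon length counts rare long transcript forms too. For example, it is 5628 bases for Ndufb2 and 8086 bases for Ndufs1. With the median length of coding transcripts instead, complex I again had the lowest median and Atp5a1 and Atp5b remained the highest members. Within complexes the order changed. Ndufv2 replaced Ndufa2 at the top of complex I, and Ndufs1 moved from rank 35 to rank 5. Sdha, Uqcrc1 and Cox6c replaced Sdhd, Uqcr10 and Cox8a at the top of complexes II, III and IV.

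The genes around the chain were more evenly divided by sign, a difference from the subunits that was not tested. Of 43 listed assembly factors outside the symbol rule 40 had a mean of at least 10, with 21 positive, 19 negative and a median of 0.00. The nearest to the threshold were Lrpprc, which stabilizes mitochondrial mRNAs, at -0.16 ± 0.12, Cox14 at 0.23 ± 0.26 and Tmem186 at -0.23 ± 0.29 in the authors' deposited table. Cytochrome c and coenzyme Q genes were split 7 to 7 with a median of -0.03. Of these Cycs, somatic cytochrome c, was at 0.05 ± 0.12, Coq3 at 0.20 ± 0.26 and Coq9 at 0.15 ± 0.23 in the authors' deposited table. Of 14 tricarboxylic acid cycle genes, 6 were positive and 8 negative, with a median of -0.01. Mdh2 was at 0.11 ± 0.09, Ogdh at 0.08 ± 0.11 and Suclg2 at -0.16 ± 0.18 in the authors' deposited table. None of these lists held a gene with an unadjusted p below 0.05. The listed genes are longer than the members, whose median merged exon length was 1737 bases. The median was 2873.5 bases for these assembly factors, 3401.5 for cytochrome c and coenzyme Q genes and 4145 for tricarboxylic acid cycle genes. With the GC and length trend described below removed, 21 of 40, 6 of 14 and 8 of 14 of them were positive.

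Regulators of respiratory genes were likewise split, with 8 of 14 positive and a median of 0.01. Their median merged exon length was 5186 bases, and 8 of 14 were also positive with the trend removed. Nrf1 and Gabpa, factors known to bind promoters of respiratory genes, lay at -0.08 ± 0.16 and 0.02 ± 0.13 in the authors' deposited table. Gabpb2 was at -0.18 ± 0.12, Polrmt, the mitochondrial RNA polymerase, at 0.20 ± 0.20 and Tfb1m at 0.22 ± 0.34 in the authors' deposited table. Tfam, which packages mitochondrial DNA, was at -0.01 ± 0.17 in the authors' deposited table. The coactivator gene Ppargc1b had a mean of 118 normalized counts, and Ppargc1a was listed at 0, in the authors' deposited table.

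The 13 subunits encoded by mitochondrial DNA lay the other way. Of the 10 with a mean of at least 10, 2 were positive and 8 negative, with a median of -0.25. Their SE had a median of 0.28 and reached 1.58. Their median GC content was 37.4%. With the GC and length trend described below removed, 2 of the 10 were again positive, and the median was -0.17. Complex I genes mt-Nd1 and mt-Nd2 were at -0.23 ± 0.10 and -0.19 ± 0.10, and the complex IV gene mt-Co1 at -0.27 ± 0.21, in the authors' deposited table. For mt-Nd1 the unadjusted p was 0.0172 in the authors' deposited table. The difference between nuclear and mitochondrial subunits was not tested, since it would need values per culture.

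**Figure D3:**
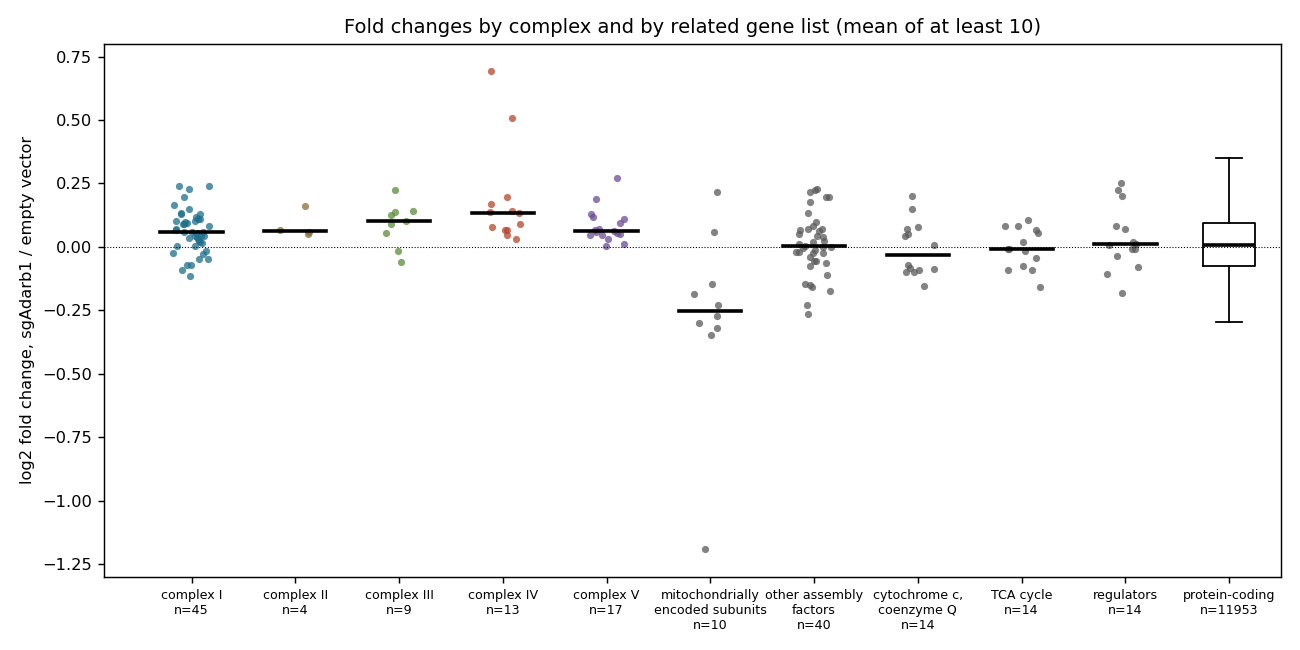
Each point is the deposited log2 fold change of 1 gene with a mean of at least 10, by complex (colours) or by related list (grey), and black bars are medians. The box shows all 11953 protein-coding genes (middle 50%, whiskers from percentile 5 to 95). Medians of the 5 complexes lie between 0.06 and 0.13 and that of the mitochondrially encoded subunits at -0.25. The GC and length trend is not removed here.

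Gene length and base composition moved with the fold change in the whole table. Short protein-coding genes were more often positive: 60.7% of the quartile with the shortest merged exons (90 to 2880 bases, median 0.04) against 42.9% of the quartile with the longest (6906 bases and above, median -0.02). Respiratory chain genes are short, and 66 of the 88 fell in the shortest quartile. Within that quartile 58 of the 66 members were positive (87.9%), with a median of 0.07, and in the next quartile 14 of 15 were, where 55.1% of protein-coding genes were. Across the 88 members, Spearman's rho of the fold change was -0.14 with exon length and 0.21 with GC content, as a description over genes that share their libraries. The same values over 11953 protein-coding genes were -0.15 and 0.26. After a linear and quadratic trend on GC content and length had been removed, 72 of the 88 members were positive with a median of 0.07, against 53.5% of protein-coding genes with a median of 0.01. The fitted trend itself had a median of 0.01 over the members. Removal of the trend turned 8 members to the negative side, Ndufv1, Ndufs8, Cox8a and Atp5g2 among them, and 3 to the positive side (Uqcrb, Uqcrc2 and Ndufab1). Complex I core subunits then had 3 of 7 positive with a median of -0.01. The medians of complexes I to V became 0.05, 0.06, 0.05, 0.10 and 0.07. The complex III value was thus about as low as that of complex I. Positive genes then numbered 32 of 45, 4 of 4, 9 of 9, 12 of 13 and 15 of 17 in complexes I to V. In complex III, Uqcrb and Uqcrc2 lay barely above 0, both at 0.002.

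**Figure D4:**
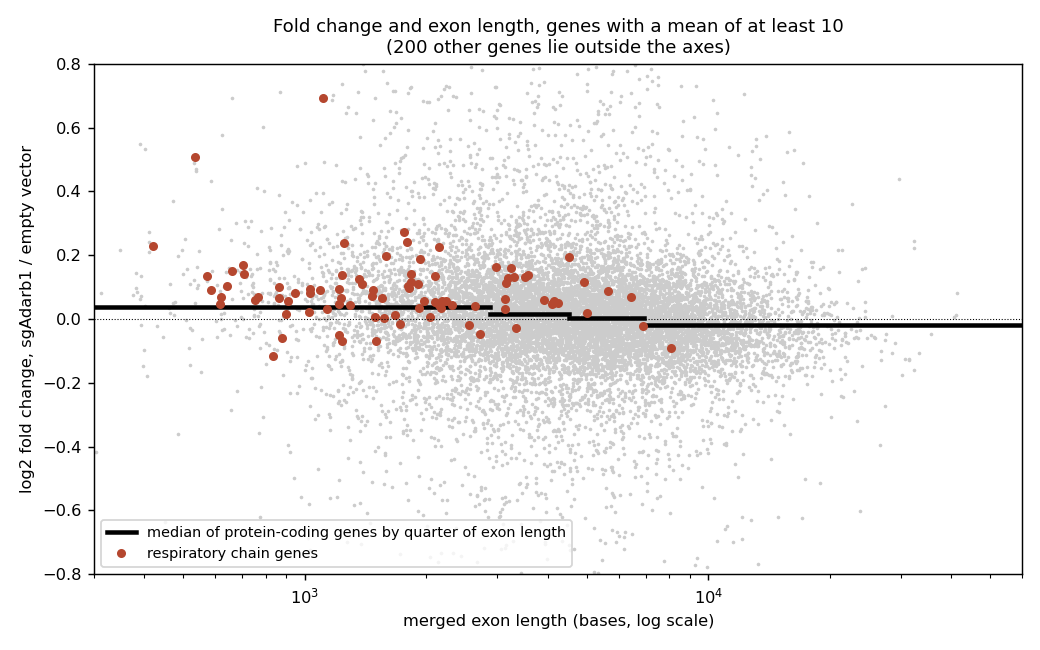
Each grey point is a protein-coding gene and each red point a respiratory chain gene, with merged exon length on a log scale and the deposited log2 fold change; 200 other genes lie outside the axes. Black lines are medians of protein-coding genes in each quartile of exon length, from 0.04 in the shortest to -0.02 in the longest, and most red points lie above them.

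Promoters of the members were searched for short motifs of factors known to act on respiratory genes. RefSeq promoters (GRCm38.p6, 250 bases before to 50 after the start) were found for 76 of the 94 symbols, 74 of which had a mean of at least 10. The motifs were GCATGCGC for NRF1, CCGGAAG for ETS factors such as GABPA, and AAGATGGCG for YY1, searched as exact letters on both strands, and a gene counted if any of its promoters held a match. The NRF1 letters and their reverse complement overlap in part, so 1 site can match on both strands. No match of 1 motif overlapped a match of another. NRF1 letters were in 16.2% of the 74 genes, against 6.16% of 9611 protein-coding genes that reached a mean of 10 and 3.05% of all 27025 genes with an entry. For the ETS letters the shares were 24.3%, 20.7% and 9.93%, and for the YY1 letters 10.8%, 3.65% and 1.64%. A match is a description of the letters and does not show binding.

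**Figure D5:**
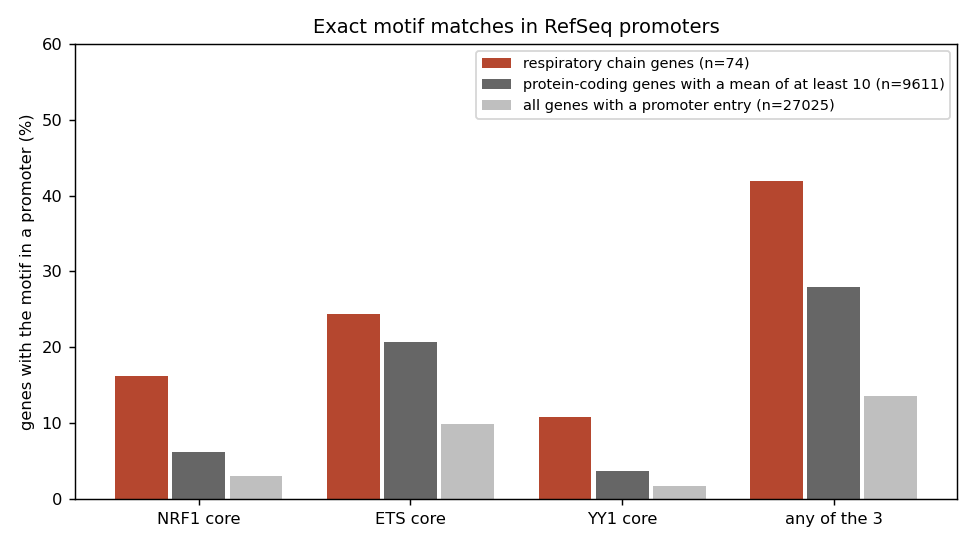
Bars give the percentage of genes with an exact motif match in a promoter, for 74 respiratory chain genes (red), 9611 protein-coding genes with a mean of at least 10 (dark grey) and all 27025 genes with a promoter entry (light grey). The red bars are the highest for each motif, with 41.9% of respiratory chain genes holding at least 1 of the 3 against 27.9% and 13.6%.

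The windows below, of 30 bases each, show the NRF1 letters (capitals) at genes of complexes I to V, read 5′ to 3′ along the gene's strand:
Ndufa8 (chr2:36049328-36049357, minus strand): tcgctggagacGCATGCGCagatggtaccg
Sdhb (chr4:140961206-140961235, plus strand): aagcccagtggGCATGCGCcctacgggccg
Uqcr11 (chr10:80406807-80406836, minus strand): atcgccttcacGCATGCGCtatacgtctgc
Cox6a1 (chr5:115349100-115349129, minus strand): aggaacggggcGCATGCGCgctctcgctcc
Atp5g2 (chr15:102671069-102671098, minus strand): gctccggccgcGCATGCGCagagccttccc
All 12 genes with NRF1 letters were positive, with a median of 0.07, as were 55 of the 62 without them, also with a median of 0.07.

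The ETS letters, or their reverse complement CTTCCGG, are shown in capitals for 1 gene of each complex:
Ndufb7 (chr8:83566726-83566755, plus strand): agcctagatgacCCGGAAGacactgaaggg
Sdhd (chr9:50603878-50603907, minus strand): accgtctcctgcCTTCCGGttcacgcttca
Uqcrh (chr4:116075063-116075092, minus strand): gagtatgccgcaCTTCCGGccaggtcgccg
Cox6b1 (chr7:30626125-30626154, minus strand): ctcctctcgcagCTTCCGGccagtcggaat
Atp5e (chr2:174464186-174464215, minus strand): ctacggccacagCTTCCGGtagccgctcgg
Of 18 genes with ETS letters 16 were positive, with a median of 0.07, and of 56 without them 51, with a median of 0.07.

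The YY1 letters were found in 8 members, 6 of complex I and 2 of complex V, and are shown for 5 because the medians with and without them lay farther apart than for the other motifs:
Ndufa9 (chr6:126849097-126849126, minus strand): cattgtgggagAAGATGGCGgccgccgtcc
Ndufc1 (chr3:51408915-51408944, minus strand): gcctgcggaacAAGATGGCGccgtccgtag
Ndufs6 (chr13:73328433-73328462, minus strand): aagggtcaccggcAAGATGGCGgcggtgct
Ndufs7 (chr10:80249462-80249491, plus strand): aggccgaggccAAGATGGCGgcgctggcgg
Atp5j2 (chr5:145191500-145191529, minus strand): accaggacttcAAGATGGCGtcactcggtg
Of these 8 genes 5 were positive, with a median of 0.01, against 62 of 66 and a median of 0.08 without the letters. The lower values were those of complex I, with a median of -0.00 for the 6 genes with the letters and 0.08 for the 34 without. In complex V the order was the opposite, with 0.10 for the 2 genes with them, both positive, and 0.06 for the 13 without. This was seen after the values were known, rests on 8 genes and was not tested. YY1 matches lay after the start site in all of the 8 but Atp5j, at a median of 24.5 bases. ETS and NRF1 matches lay on both sides of it, at medians of -18 and -49 bases. Yy1 itself lay at -0.04 ± 0.12 in the authors' deposited table.

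The members are scattered over 19 chromosomes, but some of different complexes are neighbours. Within 500 kb there were 7 pairs formed by 11 genes, 5 of them across complexes. On chromosome 10, Atp5d, Ndufs7 and Uqcr11 lie with gaps of up to 257 kb, at 0.19 ± 0.11, -0.02 ± 0.16 and 0.10 ± 0.19 in the authors' deposited table. On chromosome 19, Ndufv1 and Ndufs8 lie 94.6 kb apart, both at 0.04 in the authors' deposited table.

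Counts of some members may be shared with other genes. Exons of 30 of the 88 overlapped exons of another gene, 27 of them on the opposite strand. In the 58 without an overlap, 51 were positive. A copy of the coding sequence in a gene elsewhere, at 95% identity over at least 100 bases, was found for 23 of the 88, mostly processed pseudogenes. For 2 of them the copies' summed mean was over 10% of the member's own. These were Ndufb4, where the pseudogene Ndufb4c had a mean of 34.2 normalized counts against 178, and Atp5g1, where a pseudogene had 59.3 against 559, all in the authors' deposited table. Ndufb4 at 0.03 ± 0.33 and Atp5g1 at 0.12 ± 0.20 in the authors' deposited table are therefore uncertain. A second row for Atp5o had a mean of 0, and all 530 bases of its exons are shared with Donson or the main Atp5o gene, on the same strand.

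The symbol rule left out 3 known genes of the chain through their names or types in M21. Atpif1, the inhibitor of ATP synthase, (mean 3305 normalized counts) was at 0.14 ± 0.10 in the authors' deposited table. Usmg5, a small subunit of complex V, was at 0.18 ± 0.16 in the authors' deposited table. Ndufb1-ps, a complex I subunit gene annotated there as a non-coding transcript, was at 0.19 ± 0.21 in the authors' deposited table. All were on the positive side and none passed the test.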

How the data were processed

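Per the submitters' processing notes, reads were processed with STAR 2.6.1a, featureCounts and DESeq2 1.18.1 on mm10. For the model formula, annotation and strand setting, nothing is given in the sources used here. Ribosome-depleted RNA was used, per the labels' protocols. Per the file headers, the deposited values are a mean signal (normalized count) per gene, a log2 fold change with its SE, a Wald score and a p-value with its adjusted p. The score equalled the fold change over its SE, and the adjusted p a Benjamini-Hochberg adjustment over 29383 genes across the whole table, both checked. The 4 columns of values per library match no sample label and were not used, so no refit, depth or value per culture was computed. Whether cultures of 1 mouse vary together could not be checked.

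All 55450 identifiers matched GENCODE M21, the source of symbols, positions and merged exons. GC content came from its transcript sequences. Members with a mean of at least 10 were summarized by counts and medians, with Python 3.11.15, pandas 2.3.3 and scipy 1.17.1. Copies were searched with blastn 2.17.0. The removal of the GC and length trend was tested on simulated data. Genes named were, in each complex, those of highest level per kb, highest and lowest fold change (mean of at least 50) and smallest p, with fixed lists of roles and isoforms, all members of mean below 10, and the 3 smallest p in each related list. Other members named, the motif windows and the neighbours were chosen after their values were seen. The members and lists were chosen with earlier results of these data known. Some genes are counted in the totals but not reported here by name or in the plot of single genes. The edgeR refit planned for columns that map to samples was not possible.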

Additional observations from a re-analysis of the deposited data

How the results depend on the processing

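The count of members past the threshold stayed at 0 at adjusted p thresholds of 0.1 and 0.01 and with adjustment restricted to genes of mean 10 or more, or 50 or more. The median log2 fold change of all members ran from 0.06 to 0.08 over all alternatives run, and the share positive from 81.8% to 90.0%. Counts of positive members moved by over 1.5 times where fewer genes were counted. At a mean of at least 1000 they were 36 of 42 in all, 9 of 13 in complex I, 4 of 6 in complex III and 10 of 10 in complex V. Without genes whose exons overlap another gene they were 51 of 58 in all, 20 of 27 in complex I and 10 of 10 in complex V. Without genes with a near-identical copy, a setting chosen after seeing the data, they were 8 of 8 in complex IV and 9 of 9 in complex V. Levels per kb of the median coding transcript, also chosen after seeing the data, had medians of 905, 1318, 2217, 2056 and 2186 normalized counts for complexes I to V, higher because transcripts are shorter than merged exons. Single members named moved by less than their SE. No paired analysis was possible because no column of single-library values matches a sample label. The omission of a culture and the edgeR and DESeq2 refits were not run for that reason. The deposited SE set what was detectable.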
